A study of Mus musculus with 60 samples.

Results

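The numbered zinc finger protein genes are the mouse genes whose symbol is Zfp followed by a number and at most 1 letter. The RNA-seq table of the study lists 385 such symbols among 24508, and the 282 with a mean of at least 2 RPKM (reads per kilobase of transcript, scaled for depth) over all 18 libraries are described here. The 282 genes were chosen by their mean level over both genotypes, not by a difference between genotypes, and levels are therefore given only as a description. The libraries came from hippocampal tissue of 30-week-old mice on a mixed background of CBA and C57BL/6. Of the 18 libraries, 9 were from wild-type (WT) mice and 9 from R6/1 mice, a Huntington's disease model whose transgene is the start of human huntingtin with a lengthened CAG tract. Per the labels' protocols, each library is an independent biological replicate. The study also mapped domains occupied by lamin B1, part of the lamina under the nuclear envelope, in hippocampus of both genotypes, with 3 replicates of 5 pooled mice per genotype.

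Most proteins encoded by these genes read DNA through tandem C2H2 zinc fingers, small folds in which a pair of cysteines and a pair of histidines hold a zinc ion. A large subgroup carries, ahead of the fingers, a KRAB domain. This domain recruits the corepressor Trim28 and through it histone methylation enzymes and heterochromatin proteins, and many KRAB zinc finger proteins silence transposable elements. KRAB zinc finger genes lie in clusters that arose by tandem duplication. Other numbered genes encode proteins of different kinds under the same naming scheme, among them RNA-binding and ubiquitin ligase proteins.

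Coding sequences of 4 single fingers are shown because the number of fingers and the presence of a KRAB domain divide the set. They are from members described below. Each is the middle finger with the spacing of the classical unit in a coding transcript of build NCBIM37, written 5′ to 3′, with the codons of the zinc-binding cysteines and histidines in capitals.
Zfp27 (KRAB-type, higher in R6/1): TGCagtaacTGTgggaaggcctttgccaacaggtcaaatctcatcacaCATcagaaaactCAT
Zfp68 (KRAB-type, higher in R6/1): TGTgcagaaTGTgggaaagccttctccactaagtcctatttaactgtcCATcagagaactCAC
Zfp319 (no KRAB, higher in R6/1): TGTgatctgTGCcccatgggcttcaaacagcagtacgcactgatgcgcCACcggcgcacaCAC
Zfp651 (no KRAB, lower in R6/1): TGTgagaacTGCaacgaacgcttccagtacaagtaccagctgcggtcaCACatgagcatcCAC
A coding transcript was found for 278 of the 282 members, 265 by name and 13 by a synonym. A KRAB profile matched 150 of them, called KRAB-type below, and 128 had no match. KRAB-type members had a median of 12 fingers and the others a median of 7, and the largest count was 36. In 9 members no C2H2 finger was found, among them Zfp36, Zfp365, Zfp503 and Zfp703. The conserved linker that joins consecutive fingers in classical arrays occurred a median of 6 times in KRAB-type members and 0 times in the others.

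The members were expressed at low to moderate levels. Their mean ranged from 2.03 to 101.7 RPKM with a median of 5.5, 231 of the 282 lay under 10 RPKM and 11 lay over 20 RPKM. Reads recovered from the deposited values numbered between 12299434 and 16736544 per library, of which 0.809% to 0.936% fell on the members. Single members had between 21 and 9811 reads in a library. KRAB-type members had a median of 4.60 RPKM, and members without the profile 6.76 RPKM. Zfp365 had the highest level of the set at 101.7 RPKM over all libraries. It was followed by Zfp706 at 55.5 RPKM, Zfp106 at 51.1 RPKM, Zfp523 at 28.6 RPKM, Zfp664 at 28.0 RPKM and Zfp207 at 27.7 RPKM. Just inside the threshold lay Zfp503 (2.03 RPKM), Zfp111 (2.03 RPKM) and Zfp113 (2.06 RPKM). Just outside lay Zfp593 (1.99 RPKM), Zfp709 (1.98 RPKM) and Zfp691 (1.98 RPKM). In 5 members the WT mean alone was under 2 RPKM and in 2 members the R6/1 mean alone was, so these passed the threshold through the genotype in which they were higher. The first 5 are Zfp111, Zfp454, Zfp503, Zfp712 and Zfp791, and all 5 are among the members called higher below. As their choice favoured that direction, the counts over all members are also given without all 7. Counts by KRAB type, finger number, cluster and lamin B1 domain include them.

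The comparison of genotypes asked which of these genes differed in level between R6/1 and WT hippocampus. More members were higher than lower in R6/1, and nearly all differences were small. With limma on log2(RPKM + 0.5) and Benjamini-Hochberg adjustment over all 14446 genes tested, 80 of the 282 members (28.4%) were higher in R6/1 and 21 (7.45%) were lower, with 181 not called at an adjusted p of 0.05. Without the 7 members that passed the level threshold through 1 genotype, 75 of 275 (27.3%) were higher and 21 (7.64%) lower. Among all genes tested, 24.8% were higher and 23.5% were lower. The share of higher calls was therefore near that of all genes, and the share of lower calls was below it. The median log2 fold change of the members was 0.05, with 189 of 282 above 0, against 0.00 over all genes tested, where 50.7% were above 0. Genes tested with a mean of at least 2 RPKM had a median of 0.02, and 52.9% of them were above 0. The fold change was under 0.5 on the log2 scale in either direction for 279 of the 282, the exceptions being Zfp503, Zfp367 and Zfp365. Small changes were the rule in the whole table, with 13172 of the 14446 genes tested under 0.5. The same held for 10768 of the 11670 with a mean of at least 2 RPKM. The 9 WT and 9 R6/1 libraries did not overlap for 15 members that were higher (13 without those 7) and 5 that were lower in R6/1, and 5.5% and 6.38% of all genes tested separated in the same way. The deposited values are scaled by size factors. When each library was scaled by its own total of reads instead, 118 members were higher (41.8%) and 13 lower (4.61%). All genes tested gave 35.4% and 17.5%, and those with a mean of at least 2 RPKM gave 40% and 17.9%. Higher members then made up 90.1% of the members called in place of 79.2%. Over all genes tested the same share rose from 51.4% to 66.9%. By the authors' deposited table, adjusted p-values under 0.05 fell to 74 higher and 24 lower members, against 20% higher and 20.4% lower of the 18395 genes with an adjusted p there, and all 74 and 21 of the 24 were called in the same direction here.

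Markers of several cell types moved with genotype. The summed level of 8 neuronal markers was 2018 to 2404 RPKM in WT and 1646 to 1784 RPKM in R6/1, with 7 of the 8 lower and 1 higher. All 6 dentate granule markers and all 7 markers of CA pyramidal neurons were lower in R6/1, with summed levels of 63.9 to 110.9 RPKM against 29.6 to 36.4 RPKM and of 191.0 to 247.9 RPKM against 134.6 to 162.3 RPKM. Of 7 inhibitory neuron markers 5 were lower, of 6 astrocyte markers 5 and of 6 oligodendrocyte markers 4. Of 4 markers of oligodendrocyte precursors 1 was lower, of 7 microglial markers 2 and of 7 endothelial and pericyte markers 2. None of these markers was higher. Among all genes tested 23.5% were lower, so the counts of precursor, microglial, and endothelial and pericyte markers were near that share. The 8 choroid plexus markers, which trace tissue carried along at dissection, summed to between 82.5 and 1344 RPKM in WT and between 86.8 and 2077 RPKM in R6/1, and none of the 8 was called. No marker was at 0 in any library. The part of these cell types in the members' differences was not tested, and in bulk tissue fewer cells of a type and less RNA per cell cannot be told apart.

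The same differences were summarised library by library, over all 282 members, including the 7 that passed the threshold through 1 genotype. The median difference of the 282 members from their WT mean, on the log2 scale, lay between -0.0370 and 0.0660 in the WT libraries, with a median of 0.002. In the R6/1 libraries it lay between 0.001 and 0.119, with a median of 0.0710. The genotypes overlapped in this measure. Over all genes tested the same measure stayed between -0.0130 and 0.0120 in the 18 libraries. That median is kept near 0 by the size-factor scaling of the deposited values, so it is no independent reference. WT libraries lie around 0 by construction, as differences are taken from the WT mean. With own totals of reads the median log2 fold change over all genes tested was 0.07.

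**Figure D1:**
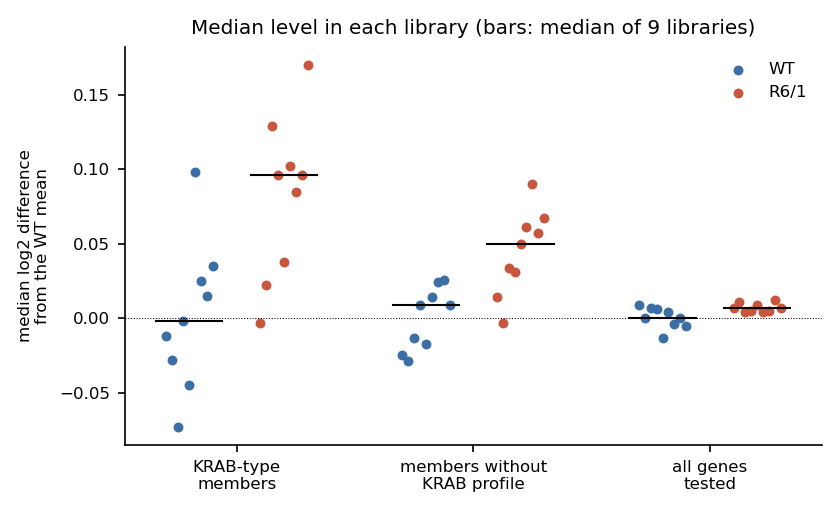
Median log2 difference from the WT mean (y axis) over the 150 KRAB-type members, the 128 members without the KRAB profile and all 14446 genes tested (x axis). Each point is 1 library, 9 per genotype, and bars are the median of the 9. The R6/1 libraries of the KRAB-type members reach 0.170 and the WT libraries 0.0980, with overlap between the genotypes.

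KRAB-type members included 47 of 150 higher (31.3%) and 8 lower (5.33%) in R6/1, with a median log2 fold change of 0.08 and 70.7% above 0. Members without the profile included 32 of 128 higher (25%) and 13 lower (10.2%), with a median of 0.03 and 64.1% above 0. The difference between both classes was not tested. The lower count of the KRAB-type members was 13 without WT replicate 3 and 12 with the GC trend removed. With each library's own total of reads, 68 KRAB-type members were higher and 2 lower, and 49 members without the profile were higher and 11 lower. Of the 15 members higher without overlap, 7 were KRAB-type, 7 lacked the profile and 1, Zfp383, had no transcript matched. These 15 include Zfp503 and Zfp712, which are in the set only through R6/1. All 5 that were lower without overlap lacked the profile. By finger number, 35 of 110 members with 12 or more fingers were higher (31.8%) and 3 lower (2.73%). Of 105 members with 6 to 11 fingers, 27 were higher (25.7%) and 6 lower (5.71%). Of 63 members with 0 to 5 fingers, 17 were higher (27%) and 12 lower (19%). Shares of all genes tested were 24.8% and 23.5%, and the difference between the finger classes was not tested. The medians of these classes were 0.08, 0.05 and 0.03 on the log2 scale. With own totals of reads the counts of higher and lower members were 51 and 2, 44 and 2, and 22 and 9. Over all genes tested, 35.4% were then higher and 17.5% lower. With the GC trend of each library removed the counts were 41 and 8, 37 and 6, and 20 and 11. Of the 13386 genes tested that way, 31.1% were higher and 21.9% lower. The coding transcripts of KRAB-type members had a median GC content of 43.3%, against 50.5% in the other members and 50.8% over the genes tested. With the trend of each library on GC content removed, the median became 0.08 for KRAB-type members and 0.07 for the others, and the median over all genes tested 0.03.

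**Figure D2:**
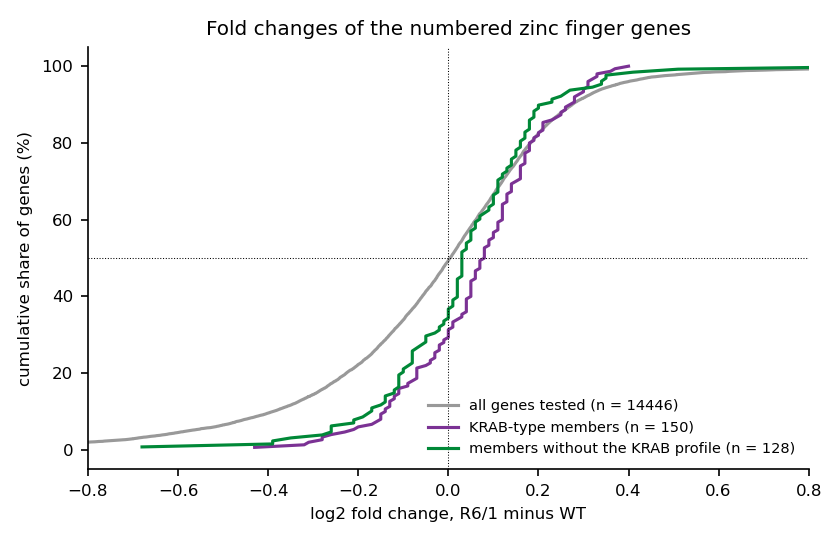
Cumulative share of genes (y axis, %) against the log2 fold change, R6/1 minus WT (x axis, shown from -0.8 to 0.8), for 150 KRAB-type members, 128 members without the profile and 14446 genes tested. The members' curves cross 50% at 0.08 and 0.03, and fewer of them lie at low values than among all genes.

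The largest increase was that of Zfp503, which encodes a transcriptional corepressor of the Nolz family known from the developing forebrain and limb. Its level lay between 0.889 and 1.59 RPKM with a median of 1.14 in WT and between 2.47 and 3.50 RPKM with a median of 2.90 in R6/1. Every R6/1 library lay above every WT library, and the log2 fold change was 1.03. Zfp503 (NCBIM37 chromosome 14, 22803184 to 22808823) is in the set only through R6/1, since its WT mean was 1.17 RPKM, and its difference is therefore given as a description, with no test. Zfp367 (chromosome 13, 64234330 to 64254510) came second, with WT libraries from 6.40 to 9.37 RPKM (median 6.88) and R6/1 libraries from 9.46 to 12.5 RPKM (median 10.5). Its highest WT and lowest R6/1 library nearly touched, and its log2 fold change was 0.51 (SE 0.068, limma adjusted p = 4.47e-06).

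The other 8 of the 10 largest increases without overlap were between 0.27 and 0.40 on the log2 scale. Zfp607b, a KRAB-type gene with 17 fingers, had 3.30 ± 0.241 RPKM in WT and rose to 4.51 ± 0.306 RPKM (SD, n = 9 per genotype here and below), a log2 fold change of 0.40. Zfp2, with 13 fingers and no KRAB domain, rose from 6.00 ± 0.309 to 7.78 ± 0.431 RPKM. The KRAB-type Zfp712, with 20 fingers, had 1.93 ± 0.166 RPKM in WT and 2.55 ± 0.224 in R6/1; like Zfp503 it is in the set only through R6/1, and its values are a description. Both Zfp2 and Zfp712 had no R6/1 library inside the WT range. Zfp319 rose from 5.53 ± 0.382 to 7.0 ± 0.488 RPKM, and Zfp68, a KRAB-type gene, from 7.73 ± 0.513 to 9.63 ± 0.609 RPKM. Zfp410, with 5 fingers, is known to act mainly on a single gene, Chd4, which encodes a chromatin remodeller of the NuRD complex. Its level rose from 4.12 ± 0.194 to 5.10 ± 0.370 RPKM (a log2 difference of 0.27, SE 0.046, limma adjusted p = 5.67e-05). Chd4 itself, named after its values were seen, had 32.8 ± 1.81 RPKM in WT and 35.8 ± 1.51 in R6/1, a change of 0.12 on the log2 scale (SE 0.036, limma adjusted p = 0.00744), with overlapping libraries. The last of the 10 are Zfp383 and Zfp27, which are neighbours on chromosome 7 and are described with the clusters.

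**Figure D3:**
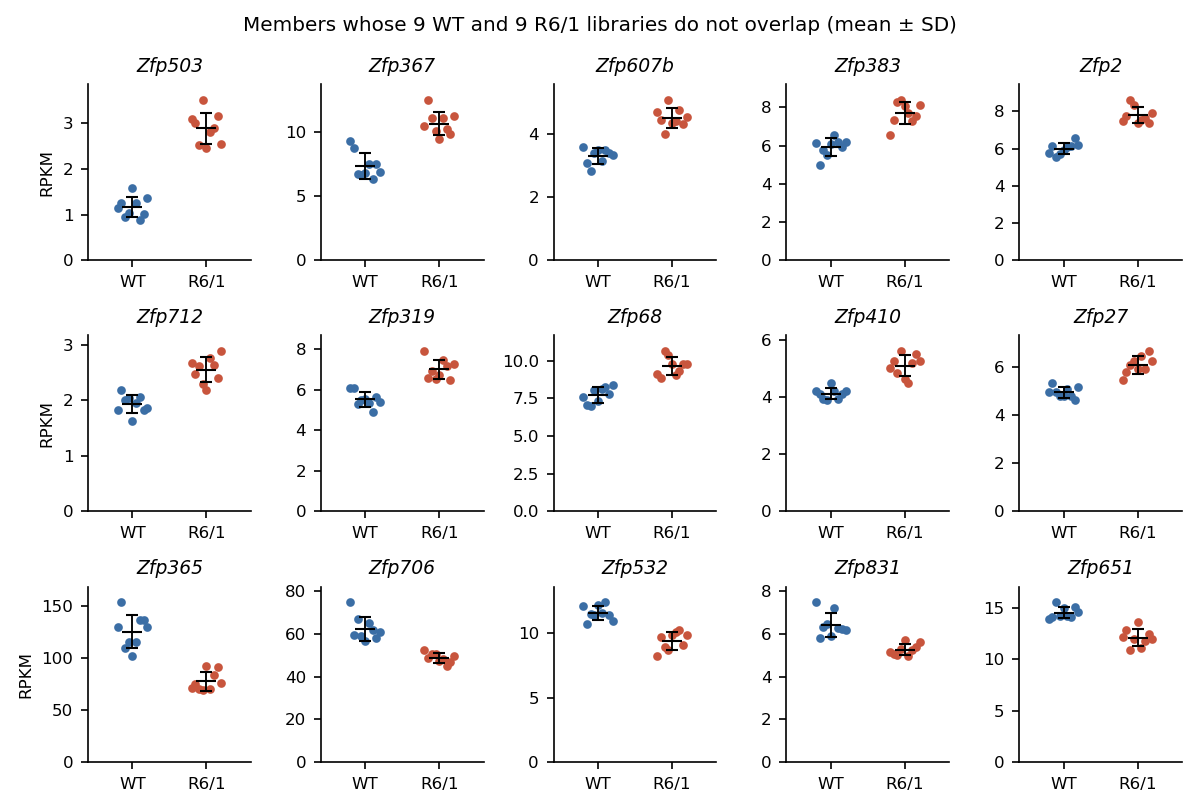
RPKM (y axis, from 0) in 9 WT and 9 R6/1 libraries for the 10 largest increases and the 5 decreases among members whose genotypes do not overlap. Points are libraries and bars the mean ± SD; Zfp365 goes from 125.5 to 77.9 RPKM and Zfp503 from 1.17 to 2.89 RPKM.

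Among the decreases, Zfp365 (chromosome 10, 67348851 to 67375410) stood first, and it was also the most highly expressed member. Its protein, a partner of the scaffold protein Disc1, has been studied in neurite outgrowth and oligodendrocyte differentiation. WT libraries lay between 102.1 and 153.5 RPKM with a median of 129.5, and R6/1 libraries between 69.8 and 92.4 RPKM with a median of 75.1. No library of one genotype entered the range of the other, and the log2 fold change was -0.68 (SE 0.076, limma adjusted p = 4.29e-07). Zfp706 (chromosome 15, 36926786 to 36937157), which encodes a short protein of 76 residues with 1 finger, fell from 62.4 ± 5.6 to 48.7 ± 2.21 RPKM, a change of -0.35 on the log2 scale (SE 0.046, limma adjusted p = 3.35e-06). Zfp532 fell from 11.6 ± 0.555 to 9.44 ± 0.696 RPKM, Zfp651 from 14.5 ± 0.542 to 12.1 ± 0.813 RPKM and Zfp831 from 6.41 ± 0.552 to 5.26 ± 0.266 RPKM. These 3 had log2 fold changes of -0.28, -0.26 and -0.26. Both members with the highest levels were thus among the 5 that fell without overlap. Of the other members at the highest levels, Zfp106, an RNA-binding protein needed by motor neurons, went from 48.0 ± 5.31 in WT to 54.2 ± 5.97 RPKM (a log2 difference of 0.17, limma adjusted p = 0.0421). That call was lost without WT replicate 2, 3, 4, 5 or 9 or R6/1 replicate 5, 6, 7, 8 or 9 (adjusted p from 0.0544 to 0.0834), with no filter on low values (0.0609) and without the mean-variance trend (0.0531). Zfp207, which acts at the mitotic spindle, rose by 0.17 on the log2 scale (limma adjusted p = 0.00414). Zfp664 had a log2 fold change of 0.02 and Zfp523 of -0.11 (limma adjusted p = 0.794 and 0.0978). Zfp523 passed the threshold without WT replicate 6 (0.0390) and without R6/1 replicate 5 (0.0335).

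Members with known roles in neurons and in neural development moved in both directions. Zfp804a, whose human counterpart is a candidate gene for psychiatric disease, fell from 6.89 ± 0.915 to 5.14 ± 0.630 RPKM (a log2 difference of -0.39, limma adjusted p = 3.79e-04). Zfp423, with 27 fingers and a role in cerebellar development, fell from 5.33 ± 0.998 to 3.92 ± 0.646 RPKM (a log2 difference of -0.39, limma adjusted p = 0.00343). Its close relative Zfp521, also with 27 fingers, had 2.07 ± 0.254 RPKM in WT and 2.12 ± 0.204 in R6/1 (limma adjusted p = 0.703). The libraries of Zfp804a and Zfp423 overlapped between genotypes. Zfp711, an X-linked gene whose human counterpart is mutated in intellectual disability, rose from 2.53 ± 0.293 to 3.35 ± 0.210 RPKM (a log2 difference of 0.35, limma adjusted p = 5.63e-05). Zfp462, a factor of brain development, rose from 6.10 ± 0.486 to 7.09 ± 0.608 RPKM (a log2 difference of 0.20, limma adjusted p = 0.00466). Zfp292 differed by 0.14 on the log2 scale (limma adjusted p = 0.0316), and the call was lost, at adjusted p from 0.0510 to 0.0613, without WT replicate 1, 2 or 3 or R6/1 replicate 6, 7, 8 or 9. Zfp335, needed for neurogenesis, differed by 0.00 on the log2 scale (limma adjusted p = 0.986).

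Among members with other functions, Zfp91, a ubiquitin ligase with 5 fingers, fell by 0.17 on the log2 scale (limma adjusted p = 8.51e-04). Zfp281, a regulator of pluripotency, fell by 0.19 (limma adjusted p = 0.00230). Its relative Zfp148 differed by 0.03 on the log2 scale (limma adjusted p = 0.638). Zfp598, the ubiquitin ligase that marks collided ribosomes, differed by 0.13 on the log2 scale (limma adjusted p = 0.203), and Zfp704 by 0.03 (limma adjusted p = 0.752). Zfp703, the relative of Zfp503, had 8.27 ± 1.29 RPKM in WT and 7.27 ± 0.559 in R6/1 (a log2 difference of -0.17, limma adjusted p = 0.0555). It passed the threshold without WT replicate 4, 6 or 7 or R6/1 replicate 7, at adjusted p from 0.0320 to 0.0432, and in the authors' deposited table (0.0480). Zfp503 and Zfp703 thus had fold changes of opposite sign, with Zfp503 chosen through its level in R6/1. Zfp36 encodes tristetraprolin, which binds AU-rich messenger RNAs through fingers of another type and promotes their decay. Its median was 2.14 RPKM in WT and 2.55 in R6/1 (limma adjusted p = 0.819), with 1 WT library at 7.28 RPKM.

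KRAB zinc finger proteins work through a shared set of corepressors and heterochromatin proteins, and most of its called genes were higher in R6/1. Of 26 genes in a list of this pathway, 22 were expressed enough to be tested, and 10 of them were higher and 1 was lower in R6/1, with a median log2 fold change of 0.06 (0.13 with own totals of reads, with the same counts). The called shares were 45.5% and 4.55%, against 24.8% and 23.5% of all genes tested. Own totals of reads left the shares of the list unchanged. All genes tested then gave 35.4% and 17.5% with a median of 0.07, and from 2 RPKM upwards 40% and 17.9%. The higher share of the list thus lay nearer to that of other genes under this scaling, and its lower share stayed below theirs. The list was not tested against other genes. In none of the 22 were the genotypes free of overlap. Besides corepressors the list holds the KRAB zinc finger genes Zfp57 and Zfp445, the latter a member of the set. Trim28, the corepressor that binds the KRAB domain, rose from 41.8 ± 1.59 to 49.4 ± 3.05 RPKM, a change of 0.24 on the log2 scale (SE 0.037, limma adjusted p = 3.15e-05). The largest increase was that of Daxx, a chaperone of histone H3.3, from 7.18 ± 0.494 to 9.10 ± 0.941 RPKM (a log2 difference of 0.32, limma adjusted p = 1.41e-04). The others called higher, named after their values were seen, were Atf7ip, Cbx5, Morc3, Mphosph8, Pphln1, Chd4, Hdac2 and Dnmt1, with log2 fold changes of 0.12 to 0.27. Setdb1, the histone methyltransferase brought in by Trim28 and added for that role, was at 10.8 ± 0.826 and 11.2 ± 0.526 RPKM (limma adjusted p = 0.366). The gene that fell was Zfp57, a KRAB zinc finger gene that protects the methylation of imprinted regions. It lies below the level threshold of the set, at 1.54 ± 0.468 RPKM in WT and 0.809 ± 0.134 in R6/1. Its libraries spanned 0.967 to 2.49 RPKM and 0.580 to 0.982 RPKM, so that they overlapped only narrowly, and its change was -0.61 on the log2 scale (SE 0.12, limma adjusted p = 1.89e-04). Zfp445, the member with the same known role at imprinted regions, was at 26.6 ± 3.50 and 23.8 ± 1.93 RPKM, a change of -0.15 on the log2 scale (limma adjusted p = 0.0885, and 0.0134 without WT replicate 1). Zfp809, a KRAB-type member that silences retroviruses of the murine leukaemia type, fell from 4.85 ± 0.712 to 3.94 ± 0.80 RPKM (a log2 difference of -0.28, limma adjusted p = 0.0247). Without WT replicate 9, R6/1 replicate 4 or R6/1 replicate 8 its adjusted p was 0.0517, 0.0517 or 0.0515, and with each library's own total of reads it was 0.0927.

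Clusters were defined as runs of at least 3 numbered genes with gaps of no more than 250 kb, and 27 were found. They held 132 of the 278 placed members, 102 of them KRAB-type, and 74 members lay on chromosome 7 alone. In clusters 36 members (27.3%) were higher and 4 (3.03%) lower, with a median log2 fold change of 0.07, against 24.8% and 23.5% of all genes tested. With own totals of reads these were 57 (43.2%) and 1 (0.758%) with a median of 0.14. All genes tested then gave 35.4% higher and 17.5% lower, with a median of 0.07. Outside the clusters 43 of 146 members were higher (29.5%) and 17 lower (11.6%), with a median of 0.04. With own totals of reads 60 were higher (41.1%) and 12 lower (8.22%). Of the 11 clusters with at least 5 members, the one with the most higher calls lay on chromosome 7 (30553571 to 30954746, NCBIM37), where Zfp27, Zfp30, Zfp74, Zfp790, Zfp84 and Zfp940 of 12 members were higher and none was lower. A cluster on chromosome 17 (21520712 to 22593656) had all 10 members above 0, with a median of 0.13, and Zfp758, Zfp943, Zfp946 and Zfp983 were called higher. The other cluster on the same chromosome (32908181 to 33768724) went the other way, with 4 of 11 members above 0, a median of -0.07, and Zfp799 called lower. Its Zfp955a and Zfp955b share 57.0% and 58.8% of their 50-base stretches with another gene, and reads of each could be counted for the other. On chromosome 13 (67139530 to 67927937), 2 of 12 members were higher, Zfp874b and Zfp712, the latter in the set only through R6/1. Members of a cluster were named here after their values were seen, apart from Zfp27 and Zfp712. In all, 17 members share more than 20% of their 50-base coding stretches with another gene, and 1 of the 17 was called (4 with own totals of reads, and 3 higher and 1 lower with the GC trend removed).

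**Figure D4:**
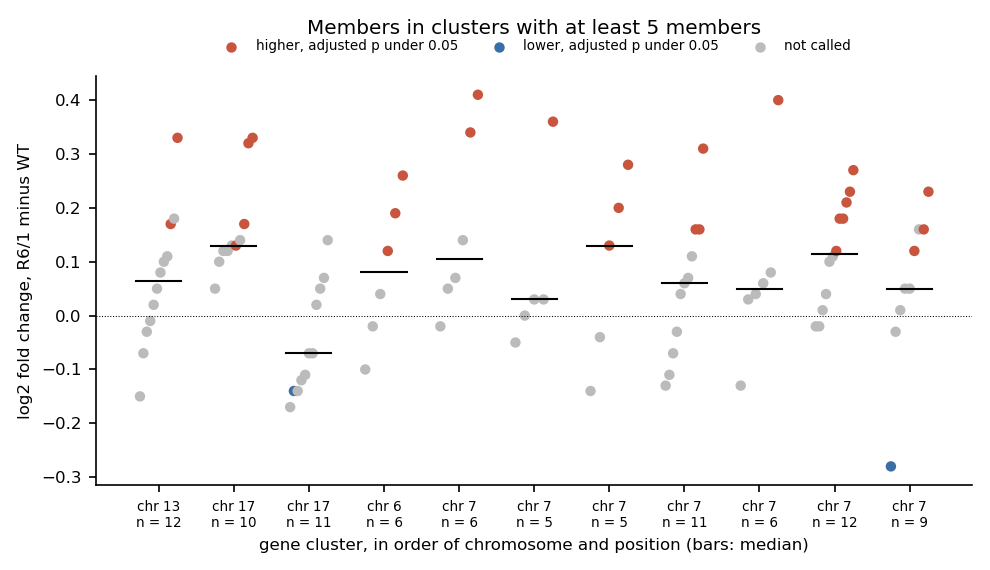
Log2 fold change, R6/1 minus WT (y axis), of each member (points) in the 11 clusters with at least 5 members, in order of chromosome and position (x axis). Bars are medians, and colour marks an adjusted p under 0.05; 1 cluster, on chromosome 17, has a median below 0, at -0.07.

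Zfp27 and Zfp383, both among the 10 largest increases, are neighbouring protein-coding genes that point away from each other, with annotated starts 1985 or 2413 bases apart in RefSeq (GRCm38.p6). Zfp27 lay between 4.62 and 5.36 RPKM in WT and between 5.45 and 6.65 RPKM in R6/1, a change of 0.27 on the log2 scale (SE 0.042, limma adjusted p = 2.47e-05). Zfp383 lay between 4.98 and 6.53 RPKM in WT and between 6.57 and 8.36 RPKM in R6/1, a change of 0.35 on the log2 scale (SE 0.052, limma adjusted p = 1.45e-05). In both genes every R6/1 library lay above every WT library. Zfp420, on the opposite strand, overlaps Zfp27 in the annotation, and since the use of strand in counting is not given, their reads may not be told apart; the same holds for Zfp319 and Tepp. The 250 bases before a start of each are shown because the pair rose together, followed by those of the genes with the largest decrease and the largest increase. They are from RefSeq (GRCm38.p6), 5′ to 3′ on the gene's strand, with matches to the 6 motifs given below in capitals.
Zfp27, chr7:29906105-29906354, minus strand: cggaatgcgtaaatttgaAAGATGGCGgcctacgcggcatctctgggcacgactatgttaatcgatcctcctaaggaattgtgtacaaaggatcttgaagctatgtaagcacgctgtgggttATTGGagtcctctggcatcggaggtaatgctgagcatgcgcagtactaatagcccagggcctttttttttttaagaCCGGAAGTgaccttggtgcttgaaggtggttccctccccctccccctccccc
Zfp383, chr7:29908267-29908516, plus strand: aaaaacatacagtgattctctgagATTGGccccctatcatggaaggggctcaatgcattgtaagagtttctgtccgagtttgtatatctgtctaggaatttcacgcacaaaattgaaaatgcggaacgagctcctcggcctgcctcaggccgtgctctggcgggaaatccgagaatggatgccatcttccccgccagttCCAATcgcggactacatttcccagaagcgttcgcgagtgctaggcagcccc
Zfp365, chr10:67912663-67912912, minus strand: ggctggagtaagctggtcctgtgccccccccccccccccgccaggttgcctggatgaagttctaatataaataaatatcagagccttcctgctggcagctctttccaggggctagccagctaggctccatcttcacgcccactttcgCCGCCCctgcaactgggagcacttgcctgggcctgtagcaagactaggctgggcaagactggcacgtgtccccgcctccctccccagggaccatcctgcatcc
Zfp503, chr14:21989602-21989851, minus strand: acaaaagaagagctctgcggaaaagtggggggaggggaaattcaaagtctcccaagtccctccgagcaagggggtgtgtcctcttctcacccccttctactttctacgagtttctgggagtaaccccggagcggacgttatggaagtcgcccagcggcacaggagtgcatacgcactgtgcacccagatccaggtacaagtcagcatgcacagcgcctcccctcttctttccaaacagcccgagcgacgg
The Zfp27 window holds a match to the YY1 letters at base 19, to the CCAAT box at 123 and to the ETS letters at 199, counted from its 5′ end. The Zfp383 window holds CCAAT boxes at 25 and 200, and that of Zfp365 a GC box at 148. No match is in the window of Zfp503. The other annotated start of Zfp27 has a single CCAAT box at base 11 of its window.

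RefSeq promoter windows of 300 bases, from 250 before a start to 50 after it, were at hand for 238 members (287 windows) and were searched on both strands. The CCAAT box (CCAAT) was in 51.7% of the windows of KRAB-type members, in 36.1% of those of the other members and in 37.4% of all 32851 windows. The ETS letters (CCGGAAGT) were in 11.3%, 8.27% and 3.89%. The GC box (GGGCGG) was in 33.1% of KRAB-type windows, 58.6% of the others and 35.7% of all windows. The NRF1 letters (CGCATGCG) were in 3.97%, 6.77% and 1.87%, the YY1 letters (AAGATGGCG) in 3.97%, 3.01% and 1.40%, and the cAMP response element (TGACGTCA) in 3.31%, 3.01% and 1.79%. The ratio of observed to expected CpG had a median of 0.685 in the members' windows and 0.384 in all windows. The members were chosen for their level, while the 32851 windows were not limited to expressed genes, and windows of expressed genes alone were not compared. Genes with several annotated starts have several windows, some of which overlap. A match is a description of the letters and says nothing about binding.

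Lamin B1 domains were deposited as 1 list per genotype, covering 1061.6 Mb in WT and 892.4 Mb in R6/1. The transcription start of 30 of the 278 placed members lay in a domain of both genotypes, of 14 in a WT domain alone, of 5 in an R6/1 domain alone and of 229 in none. The share in a domain of either genotype was 17.6% for members, 23.3% for KRAB-type members and 10.9% for members without the profile, against 13.3% over all tested genes with a position. Of the 30 members in domains of both genotypes, 13 were higher in R6/1 and 1 was lower, 26 were above 0 and the median log2 fold change was 0.13. Of 1056 tested genes in such domains, 24.3% were higher and 24.8% lower, with a median of -0.00. These 30 include all 10 members of the chromosome 17 cluster at 21520712 and all 5 of a chromosome 7 cluster (13390326 to 13569689), so that they are not independent in position. In that chromosome 7 cluster Zfp110, Zfp128 and Zfp324 were higher. Of the 14 members in WT domains alone, 4 were higher (28.6%) and 1 lower (7.14%), with a median of 0.05. Among all tested genes in WT domains alone, 23.9% were higher and 20.5% lower. Of the 229 members in no domain 61 were higher (26.6%) and 18 lower (7.86%), with the same median of 0.05. All tested genes in no domain gave 25.5% and 23.8%. With own totals of reads, 17 members in domains of both genotypes were higher and 1 lower. In WT domains alone these counts were 6 and 1, and in no domain 92 and 11, beside 35.4% and 17.5% of all genes tested. The difference between these classes was not tested, and with 1 list per genotype a difference between the lists has no replicate check.

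The median SD of members within a genotype was 0.123 on the log2 scale, against 0.122 for all tested genes over the same level threshold. The members had a lower median level than those genes. Spread at a matched level was not tested. KRAB-type members had a median SD of 0.133 and the others of 0.113. The largest spread was that of Zfp33b at 0.767, followed by Zfp36 at 0.412 and Zfp605 at 0.402 (Zfp33b and Zfp605 were picked after their values were seen). The levels of Zfp33b fell into 3 ranges that did not follow genotype. It was between 0.504 and 0.711 RPKM in 4 libraries (1 WT and 3 R6/1), between 2.18 and 3.30 RPKM in 11 libraries (6 WT and 5 R6/1) and between 4.22 and 4.95 RPKM in 3 libraries (2 WT and 1 R6/1). In the 3 libraries highest in Zfp33b, Zfp605 was lowest, at 4.58 to 5.62 RPKM, against 8.12 to 10.4 RPKM in the middle 11 and 8.71 to 14.6 RPKM in the 4 libraries lowest in Zfp33b. Over the 18 libraries, deviations of both genes from the genotype mean had a Pearson correlation of -0.763 and a Spearman correlation of -0.748, given as a description of a pair picked for it. Both genes are on chromosome 5 in RefSeq. Neither was called between genotypes, with log2 fold changes of -0.34 for Zfp33b (SE 0.32, limma adjusted p = 0.404) and 0.30 for Zfp605 (SE 0.17, limma adjusted p = 0.152).

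**Figure D5:**
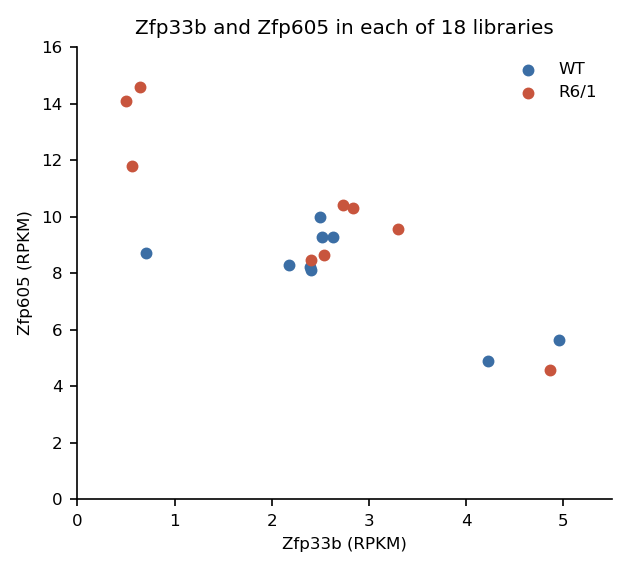
RPKM of Zfp605 (y axis) against that of Zfp33b (x axis) in each of the 18 libraries, 9 WT and 9 R6/1. The 3 libraries over 4 RPKM in Zfp33b lie lowest in Zfp605, at 4.58 to 5.62 RPKM, and both genotypes occur in all 3 ranges of Zfp33b.

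Numbered zinc finger genes below the threshold and zinc finger genes of other names give the context for these counts. Of 67 numbered genes with a mean of 0.5 to 2 RPKM, 14 were higher and 5 lower, with a median log2 fold change of 0.04. Other C2H2 families (Zbtb, Zscan, Zkscan, Klf, Zic, Egr, Sp, Ikzf, Gli, Sall and Bcl11) had 75 genes over the same threshold, of which 21 were higher and 16 lower (33 and 9 with own totals of reads), with a median of 0.02. Against these, lower calls were 7.45% of the members, 7.46% of the numbered genes below the threshold and 21.3% of the other C2H2 genes. The difference was not tested.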

How the data were processed

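Per the labels' protocols, stranded messenger RNA libraries were made from hippocampus of 9 WT and 9 R6/1 mice. The authors deposited RPKM per gene symbol, and a comparison table with a mean normalized count per gene (a signal scaled by size factors), the log2 difference and its standard error, the test's score and p-values. Per the submitters' processing notes, the authors used TopHat, DESeq2 and build mm9; annotation, counting and the use of strand are not given in the sources used here, so overlapping antisense genes (60 members have one annotated) could share reads. The authors' deposited domain lists carry a score, not used here. No domain passed a chromosome end of NCBIM37 (mm9).

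The RPKM times the ratio of mean normalized count to mean RPKM gave whole multiples of 1 step per library for 99.89% to 99.92% of values (within 0.05 of a read), hence the reads per library. Precision at low levels is limited by counting. Groups followed the genotype in the labels, with 0 columns of per-sample values unused. Genes averaging 0.5 RPKM or more were fitted with limma 3.58.1 (R 4.3.3; lmFit, eBayes with trend, two-sided) on log2(RPKM + 0.5), so that fold changes of low genes are understated, with Benjamini-Hochberg adjustment over 14446 genes. The fit was tested on simulated data.

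KRAB domains were found in translated GENCODE transcripts (NCBIM37) with a profile (MAFFT 7.526, HMMER 3.4) built from sequences that match the letters of the A box; the profile replaced the letters after these were seen to miss known KRAB proteins, and GENCODE replaced RefSeq proteins, which were not used here. Fingers were counted as C, 2 to 4 residues, C, 12 residues, H, 3 to 5 residues, H. The alternatives were other pseudocounts, filters, scalings and tests, the authors' table, covariates for Ttr and Xist, removal of a GC trend, the replicate number as a block and leaving out each library.

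The members and gene lists were chosen with earlier results of these data known. Named are the 10 largest increases and decreases (5 existed) with an adjusted p under 0.05 and no overlap between genotypes. Also named are the 6 highest members, the 3 nearest the threshold on each side and 22 genes listed by known role (19 are members). The last are 3 genes of the corepressor list, Zfp57 among them. ATAC-seq and ChIP reads were not analysed here.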

Additional observations from a re-analysis of the deposited data

Results flagged for a closer look

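In the named members, 74 groups of 9 libraries were searched for a library far from the other 8, and chance alone gives such a library in about 1 of 20 groups. There were 2. Zfp36 was at 7.28 RPKM (203 reads) in WT replicate 5, against 2.87 RPKM in the next highest WT library; without that library its log2 fold change went from 0.06 (limma adjusted p = 0.819) to 0.22 (limma adjusted p = 0.0838). Zfp703 was at 11.4 RPKM (564 reads) in WT replicate 2, against 8.69 RPKM in the next; without it the log2 fold change went from -0.17 (limma adjusted p = 0.0555) to -0.11 (limma adjusted p = 0.0891). What sets these libraries apart was not tested.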

How the results depend on the processing

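Under 31 or 32 alternatives for each named gene (18 of them leave out 1 library), none of 44 named genes reversed, and the calls of 10 changed under at least 1 alternative (34 losses and 14 gains). Of the losses, 11 were those of Zfp111, which is in the set only through R6/1. Members higher than lower in R6/1 held under every alternative run. Scaling by each library's own total of reads moved most. It left 13 lower members with a median of 0.120 and 2 lower KRAB-type members with a median of 0.144. It also left 49 higher members without the profile with a median of 0.101, and 33 higher and 9 lower genes of the other C2H2 families. The same scaling raised the median of all genes tested to 0.07, with 35.4% of them higher and 17.5% lower. The part of that rise in these moves was not tested. Removing the GC trend gave members without the profile a median of 0.071 and all genes tested a median of 0.033, and there the cause was not tested. The lower count of the corepressor list, 1, became 2 with no filter, in the authors' table and with the replicate block, and 0 with a filter at 2 RPKM, which removes Zfp57. Leaving out 1 library gave 70 to 83 higher and 18 to 28 lower members. KRAB-type members had 39 to 49 higher and 6 to 13 lower, and members without the profile 28 to 34 higher and 12 to 19 lower. The corepressor list had 9 to 10 higher and 1 to 2 lower genes (2 without WT replicate 1, the KRAB zinc finger genes Zfp57 and Zfp445). Other C2H2 genes had 19 to 26 higher and 12 to 18 lower. The replicate number as a block gave 72 higher and 25 lower members, and with it Zfp703 (adjusted p = 0.0300) and Zfp445 (0.0118) were called. Zfp111 was not called there, but it is in the set only through R6/1 and is given as a description. Replicate numbers were not found to pair the libraries (correlations of same-numbered libraries from -0.0533 to 0.237, and 2 of 9 WT libraries correlated best with their own number). With own totals Zfp148 was called (adjusted p = 0.0493), and with the GC trend removed Zfp598 (adjusted p = 0.0258). Added after seeing the data, leaving out members that share over 20% of 50-base stretches left 79 higher and 21 lower, and leaving out the 7 members with a mean under 2 RPKM in 1 genotype left 75 and 21. The letters of the A box gave 105 KRAB-type members and their core 113. Thresholds of 1 and 3 RPKM would choose 332 and 229 genes. Requiring the whole gene in a domain, or any overlap, placed 48 or 51 members in a domain in place of 49. Reads per library limit members near 2 RPKM, where single libraries hold few reads.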
